A study of Mus musculus with 15 samples.

Results

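Immune checkpoint receptors and their ligands were followed in leukemic mouse spleen cells as 10 genes chosen by name, namely the receptors Pdcd1, Ctla4, Btla, Tigit, Lag3 and Havcr2 and the ligands Cd274, Pdcd1lg2, Cd80 and Cd86. All 10 were listed in both deposited tables, among 16470 genes in the vehicle (DMSO) table and 16428 in the ibrutinib table, or 17029 genes in either. RNA sequencing was made of lymphocytes taken by mechanical disruption from leukemia-burdened spleens and cultured for 24 h with DMSO or with 5 μM ibrutinib, an inhibitor of Bruton's tyrosine kinase. All mice were on the C57Bl/6 background and carried Eμ-TCL1, a transgene whose Eμ enhancer and promoter drive the TCL1 oncogene in B-cells. Eμ-TCL1;p53R172H/+ mice were also heterozygous for the mutant R172H allele of Trp53. There were 3 Eμ-TCL1 libraries (replicates 2, 3 and 4) and 5 Eμ-TCL1;p53R172H/+ libraries (replicates 1 to 5) in DMSO, and 3 (replicates 1, 3 and 4) and 4 (replicates 1, 3, 4 and 5) in ibrutinib. The ages of the mice are not given in the sources used here, and no cell sort is described. Values are the authors' normalized CPM (read counts scaled to library size), set separately within each table and rounded to 0.1. Depth is unknown for all libraries, so no counting error is given.

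Checkpoint receptors are surface proteins that hold lymphocyte activation in check when they meet a ligand on a neighboring cell. PD-1 (Pdcd1) binds PD-L1 (Cd274) and PD-L2 (Pdcd1lg2), and CTLA-4 (Ctla4) competes with the activating receptor CD28 for CD80 (Cd80) and CD86 (Cd86), which activated B-cells and dendritic cells display. BTLA (Btla) is made by resting B-cells as well as T-cells, whereas TIGIT (Tigit), LAG-3 (Lag3) and TIM-3 (Havcr2) are best known from activated or exhausted T-cells, natural killer (NK) cells and, for TIM-3, myeloid cells. In chronic lymphocytic leukemia, PD-L1 on the leukemic B-cells and PD-1 on T-cells are the pair most often described.

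The libraries were not alike in their cells, and this touches every gene below. In DMSO, Eμ-TCL1;p53R172H/+ replicates 1 and 2 had T-cell markers (12 genes, summed) of 3398.3 and 3866.7 against 265.1 to 739.6 in the other libraries, and B-cell markers (10 genes, summed) of 365.3 and 385.4 against 3732.0 to 6507.3 in Eμ-TCL1;p53R172H/+ replicates 3 to 5 and Eμ-TCL1 replicates 3 and 4. Eμ-TCL1;p53R172H/+ replicate 1 in ibrutinib was of the same kind, with Cd3e, a subunit of the T-cell receptor complex, at 82.0 and summed B-cell markers of 123.0. Eμ-TCL1 replicate 2 in DMSO and replicate 1 in ibrutinib were rich in myeloid markers instead, with the macrophage gene Lyz2 at 7931.4 and 5895.8 and summed B-cell markers of 646.1 and 542.2. These 5 libraries are called T-cell-rich and myeloid-rich. Eμ-TCL1;p53R172H/+ replicate 3 in ibrutinib was mixed, with Cd3e at 96.0 and summed B-cell markers of 657.2. The other libraries had a larger B-cell than T-cell sum and are called B-cell-rich. Of these, Eμ-TCL1;p53R172H/+ replicates 4 and 5 in ibrutinib were the least so. Their B-cell sums were 1719.1 and 1383.5 and their T-cell sums 731.9 and 995.0. Eμ-TCL1 replicates 3 and 4 in ibrutinib had B-cell sums of 3932.6 and 2937.3, so the genotypes were not matched for cells there. The defining markers of T-cells (Cd3d, Cd3e and Cd3g) and of B-cells (Cd79a and Pax5) were above 0 in all 15 libraries. In bulk RNA, fewer cells of a type and less RNA per cell cannot be told apart.

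Some libraries shared their most abundant immunoglobulin variable genes. Eμ-TCL1 replicates 3 and 4 were led by Ighv1-55 with Igkv12-89 in both tables, and Eμ-TCL1;p53R172H/+ replicates 3 and 5 in DMSO by Ighv6-3 with Igkv12-46, whereas Eμ-TCL1;p53R172H/+ replicate 4 was led by Ighv12-3 with Igkv4-91. The T-cell-rich Eμ-TCL1;p53R172H/+ replicates 1 and 2 in DMSO shared Ighv11-2 and Igkv14-126 (r = 0.965 between the libraries over 9279 genes), and the myeloid-rich Eμ-TCL1 replicate 2 in DMSO and replicate 1 in ibrutinib shared Ighv9-3 and Igkv3-5 (r = 0.986). Nothing in the labels says whether such libraries came from separate mice, so p-values measure the spread between these libraries only. All Eμ-TCL1 libraries had high Xist and no Ddx3y, and Eμ-TCL1;p53R172H/+ replicates 1, 2 and 4 in DMSO and 1, 3 and 4 in ibrutinib the reverse, so genotype and sex are in part confounded.

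In the few B-cell-rich libraries, a split made after the markers were seen, PD-1 and CTLA-4 transcripts took opposite places in the genotypes. In DMSO, Pdcd1 was high in Eμ-TCL1;p53R172H/+ and near the bottom of the scale in Eμ-TCL1, and Ctla4 was the reverse. Eμ-TCL1 replicates 3 and 4 shared leading immunoglobulin variable genes, as did Eμ-TCL1;p53R172H/+ replicates 3 and 5 in DMSO. How many separate leukemias stand behind this contrast is therefore not known. Neither Pdcd1 nor Ctla4 passed the threshold, with all libraries in the fit or with only the B-cell-rich ones in DMSO. The 250 bases before the RefSeq start site of both genes, and of Cd80, whose values in these libraries did not overlap between genotypes either, are printed here from the RefSeq promoter table (GRCm38.p6), 5′ to 3′ along the gene. Capitals in Pdcd1 (chr1:94052554-94052803, minus strand) and Ctla4 (chr1:60908775-60909024, plus strand) mark the NFAT core GGAAA or its reverse complement, a short motif of a factor activated by antigen receptor signaling, and those in Cd80 (chr16:38458683-38458932, plus strand) mark the AP-1 motif TGANTCA.

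Pdcd1: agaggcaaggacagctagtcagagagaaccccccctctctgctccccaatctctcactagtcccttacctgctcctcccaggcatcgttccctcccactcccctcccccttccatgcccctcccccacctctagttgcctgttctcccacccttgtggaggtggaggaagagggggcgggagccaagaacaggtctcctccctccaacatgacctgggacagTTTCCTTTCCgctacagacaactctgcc
Ctla4: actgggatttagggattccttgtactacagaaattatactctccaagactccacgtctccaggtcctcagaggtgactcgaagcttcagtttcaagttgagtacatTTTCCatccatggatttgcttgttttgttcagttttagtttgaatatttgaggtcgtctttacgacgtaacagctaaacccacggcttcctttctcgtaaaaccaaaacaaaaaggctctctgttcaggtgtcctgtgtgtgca
Cd80: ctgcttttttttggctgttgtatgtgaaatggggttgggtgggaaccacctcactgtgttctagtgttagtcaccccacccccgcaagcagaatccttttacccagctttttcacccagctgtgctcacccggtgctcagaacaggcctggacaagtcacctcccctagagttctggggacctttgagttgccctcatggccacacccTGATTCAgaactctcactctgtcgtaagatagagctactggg

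The NFAT core occurred 2 times in the Pdcd1 window, once in that of Ctla4 and not in that of Cd80, and of these 3 windows Cd80 alone held the AP-1 motif, once. Of the 5 other genes with a window, GGAAA occurred 2 times in Tigit and once each in Cd274 and Pdcd1lg2, TGANTCA once in Havcr2, and neither in Btla. Searched on both strands, GGAAA was present in 55.6% and TGANTCA in 6.75% of 32817 RefSeq promoter windows of this length. A match describes the letters and is not evidence of binding. Of the 10 genes, 8 had an entry in the promoter table, and the 2 others were Lag3 and Cd86.

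**Figure D1:**
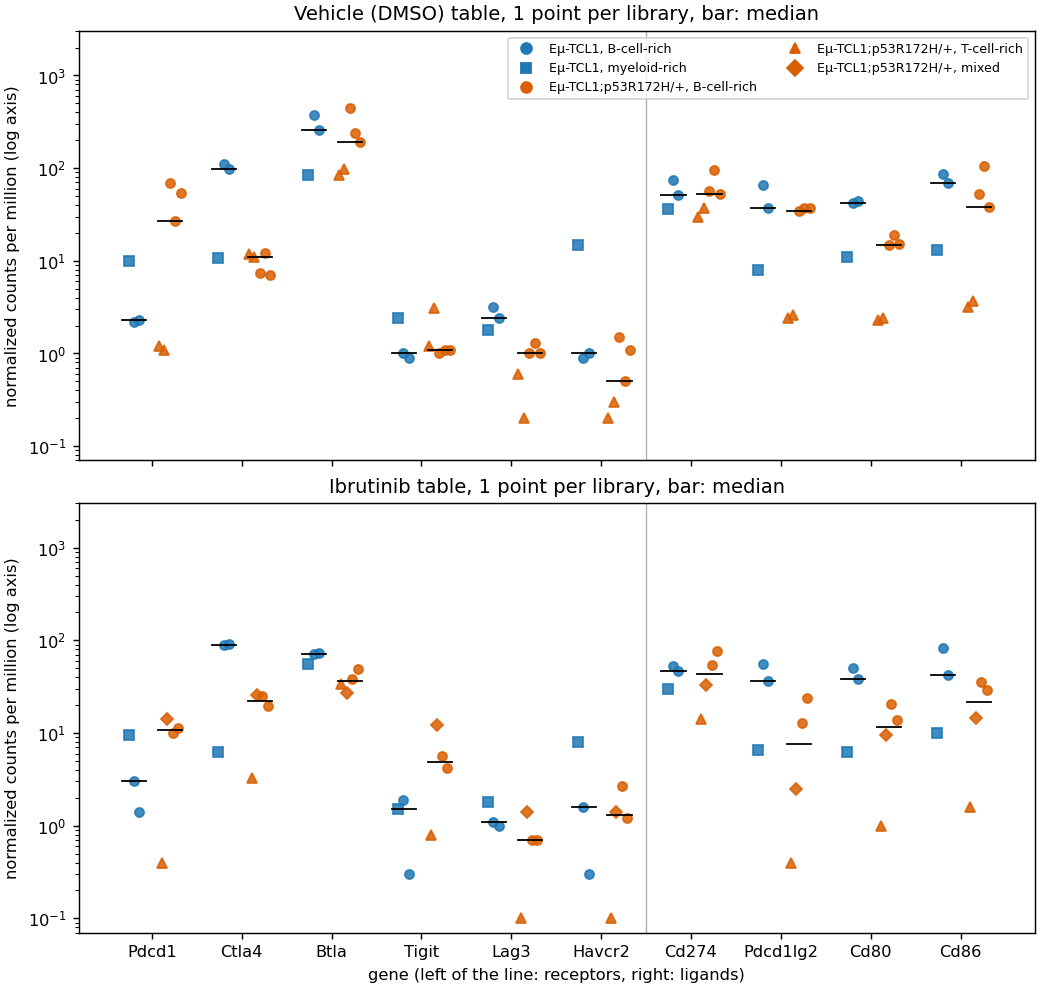
Normalized CPM (log axis) of each checkpoint gene in every library of the DMSO table (top) and the ibrutinib table (bottom), with bars at the group medians, colors for genotype and shapes for the kind of library. Ctla4 lies near 100 in the 2 B-cell-rich Eμ-TCL1 libraries of each table and at 25.5 or less in all others, and Pdcd1 is highest in the B-cell-rich Eμ-TCL1;p53R172H/+ libraries in DMSO.

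Pdcd1 (chr1:94038305-94052553, GRCm38) was 69.8, 27.2 and 54.1 in Eμ-TCL1;p53R172H/+ replicates 3, 4 and 5 in DMSO, and 1.2 and 1.1 in the T-cell-rich replicates 1 and 2. In Eμ-TCL1 it was 9.9, 2.2 and 2.3, the highest being the myeloid-rich replicate 2. PD-1 message was lowest in the 2 libraries with the most T-cell markers, and the genotypes overlapped. Mean values were 30.7 ± 31.0 (SD, n = 5) against 4.80 ± 4.42 (SD, n = 3). On the log2 scale Eμ-TCL1;p53R172H/+ differed from Eμ-TCL1 by 1.51 with a standard error of 1.32 (limma, adjusted p = 0.703). With the T-cell-rich and myeloid-rich libraries left out, a choice made after the markers were seen, the log2 change was 3.88 (standard error 0.44, limma adjusted p = 0.0838, 3 libraries against 2), and over all alternatives the adjusted p ranged from 0.04868 to 0.8256.

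In ibrutinib, Pdcd1 was 14.2, 9.9 and 11.4 in Eμ-TCL1;p53R172H/+ replicates 3, 4 and 5 and 0.4 in the T-cell-rich replicate 1. Eμ-TCL1 had 9.5 in the myeloid-rich replicate 1 and 3.0 and 1.4 in replicates 3 and 4. As in DMSO, the T-cell-rich library was lowest and Eμ-TCL1;p53R172H/+ replicates 3 to 5 were above all Eμ-TCL1 libraries, here by a narrower gap, and the mixed replicate 3 had the highest value. The log2 change was 0.65 (standard error 0.91, limma adjusted p = 0.762) with all libraries and 2.04 (standard error 0.31, limma adjusted p = 0.0903) without the T-cell-rich and myeloid-rich ones. Leaving out the mixed replicate 3 as well gave 1.91 (limma adjusted p = 0.2534), and the adjusted p ranged up to 0.9999 over all alternatives.

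Ctla4 (chr1:60887000-60915832, GRCm38) was 109.8 and 97.8 in Eμ-TCL1 replicates 3 and 4 in DMSO and 10.7 in the myeloid-rich replicate 2. In Eμ-TCL1;p53R172H/+ it was 11.7, 11.1, 7.4, 12.1 and 7.1 in replicates 1 to 5. Only the 2 Eμ-TCL1 libraries that shared immunoglobulin variable genes stood above the rest, and replicate 2 lay within the Eμ-TCL1;p53R172H/+ range. Mean Ctla4 stood at 72.8 ± 54.1 (SD, n = 3) for Eμ-TCL1 libraries and at 9.88 ± 2.43 (SD, n = 5) for Eμ-TCL1;p53R172H/+ libraries. The log2 change was -2.24 (standard error 0.70, limma adjusted p = 0.503). Without Eμ-TCL1 replicate 2 the log2 change was -3.30 and passed the threshold (limma adjusted p = 0.008085), and without the T-cell-rich libraries too it was -3.44 (standard error 0.27, limma adjusted p = 0.0594). Over all alternatives the adjusted p for Ctla4 ranged from 0.001385 to 0.7595.

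Eμ-TCL1 replicates 3 and 4 carried the high Ctla4 message in ibrutinib too, at 89.3 and 91.0, with 6.2 in the myeloid-rich Eμ-TCL1 replicate 1. Eμ-TCL1;p53R172H/+ had 25.5, 25.1 and 19.5 in replicates 3, 4 and 5 and 3.3 in the T-cell-rich replicate 1. The log2 change was -1.32 (standard error 1.05, limma adjusted p = 0.608) with all libraries, and -1.91 (standard error 0.17, limma adjusted p = 0.0714) without the T-cell-rich and myeloid-rich ones, with a range up to 0.9999 over all alternatives. Ctla4 is usually read as a T-cell gene, and its values were set beside the T-cell markers for that reason. As a percentage of the summed T-cell markers, Ctla4 was 38.4% and 13.2% in Eμ-TCL1 replicates 3 and 4 in DMSO, 2.11% to 4.15% in Eμ-TCL1;p53R172H/+ replicates 3 to 5, and 0.344% and 0.287% in the T-cell-rich replicates 1 and 2. Against the summed B-cell markers, the same Eμ-TCL1 libraries had 1.69% and 1.997% and Eμ-TCL1;p53R172H/+ replicates 3 to 5 had 0.190% to 0.253% in DMSO. In ibrutinib that share was 2.27% and 3.10% in Eμ-TCL1 against 1.46% and 1.41% in Eμ-TCL1;p53R172H/+ replicates 4 and 5, and the mixed replicate 3 alone lay above them all, at 3.88%.

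**Figure D2:**
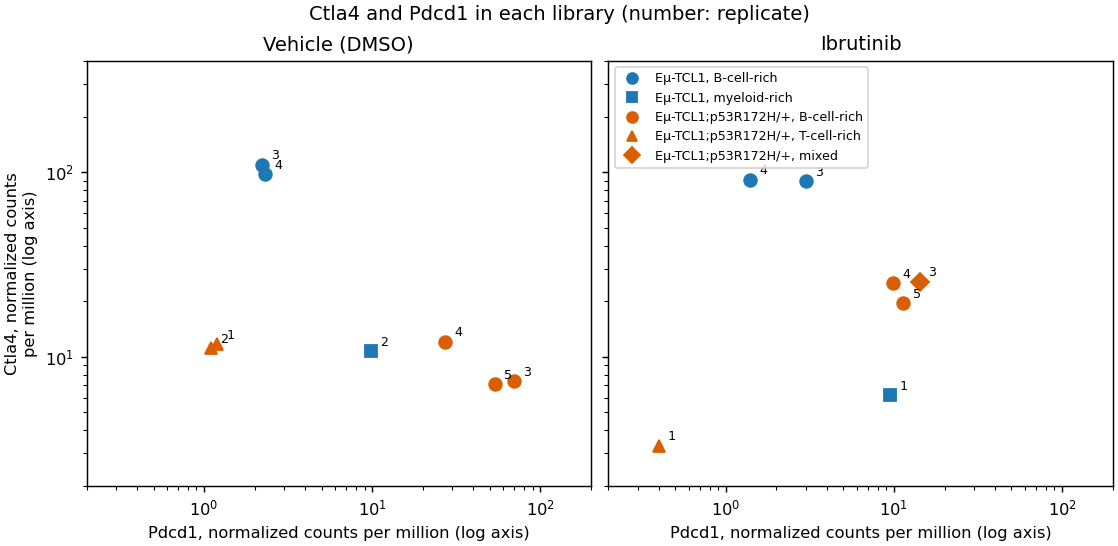
Ctla4 against Pdcd1 in each library (normalized CPM, both axes log), DMSO at the left and ibrutinib at the right, labelled by replicate number, with colors for genotype and shapes for the kind of library. B-cell-rich Eμ-TCL1 libraries lie at the upper left (Ctla4 89.3 to 109.8, Pdcd1 1.4 to 3.0), Eμ-TCL1;p53R172H/+ replicates 3 to 5 at the lower right, and the T-cell-rich libraries have the lowest Pdcd1 values (0.4 to 1.2).

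BTLA was the most abundant receptor in vehicle-treated cells and the gene whose genotypes separated in ibrutinib. Btla (chr16:45224315-45257670, GRCm38) was 55.8, 71.1 and 73.1 in Eμ-TCL1 and 33.8, 27.2, 38.3 and 48.5 in Eμ-TCL1;p53R172H/+ in ibrutinib, and no Eμ-TCL1;p53R172H/+ library reached the lowest Eμ-TCL1 value. Mean Btla was 66.7 ± 9.46 (SD, n = 3) against 36.95 ± 8.95 (SD, n = 4). The log2 change of -0.85 (standard error 0.22) did not pass after adjustment over 16428 genes (limma adjusted p = 0.262, 0.1032 to 0.9999 over all alternatives). It was -0.94 without the T-cell-rich and myeloid-rich libraries (limma adjusted p = 0.182). In DMSO the values were 84.8, 377.5 and 255.6 in Eμ-TCL1 and 84.1, 97.4, 446.7, 238.8 and 193.6 in Eμ-TCL1;p53R172H/+, and the genotypes overlapped (log2 change -0.19, standard error 0.65, limma adjusted p = 0.928). There the lowest values were those of the T-cell-rich and myeloid-rich libraries. All 7 ibrutinib values (27.2 to 73.1) lay below all 8 DMSO values (84.1 to 446.7), but the tables were scaled separately and this difference was not tested.

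Tigit, a receptor of T-cells and NK-cells for the poliovirus receptor (chr16:43648867-43664146, GRCm38), was low in DMSO, at 2.4, 1.0 and 0.9 in Eμ-TCL1 and 1.2, 3.1, 1.0, 1.1 and 1.1 in Eμ-TCL1;p53R172H/+. In ibrutinib it was 0.8, 12.3, 5.6 and 4.2 in Eμ-TCL1;p53R172H/+ replicates 1, 3, 4 and 5 and 1.5, 1.9 and 0.3 in Eμ-TCL1. Eμ-TCL1;p53R172H/+ replicates 3 to 5 lay above every Eμ-TCL1 library, and the T-cell-rich replicate 1 lay among them. The log2 change in ibrutinib was 1.34 (standard error 0.66, limma adjusted p = 0.465), and 1.99 (standard error 0.55, limma adjusted p = 0.184) without the T-cell-rich and myeloid-rich libraries, with a range of 0.1655 to 0.9999 over all alternatives.

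T-cell markers were also higher in Eμ-TCL1;p53R172H/+ in ibrutinib. Their sum pools genes of CD4 and CD8 T-cells with general T-cell genes, so it does not tell which T-cells a library held. In ibrutinib, Eμ-TCL1;p53R172H/+ replicates 1, 3, 4 and 5 had sums of 2314.0, 1396.2, 731.9 and 995.0 beside Tigit of 0.8, 12.3, 5.6 and 4.2. Eμ-TCL1 replicates 1, 3 and 4 had sums of 246.6, 225.7 and 712.9 beside Tigit of 1.5, 1.9 and 0.3. The summed markers ran from 225.7 to 712.9 in Eμ-TCL1 and from 731.9 to 2314.0 in Eμ-TCL1;p53R172H/+ in ibrutinib, without overlap, a difference of 1.86 on the log2 scale (two-sided exact permutation p = 0.02857, the smallest that 4 against 3 libraries can give). With the T-cell-rich replicate left out the difference was 1.56 (exact permutation p = 0.1, the smallest possible). In DMSO the difference was 1.12 (exact permutation p = 0.3036) and turned to -0.29 without the 2 T-cell-rich libraries. Of the 12 T-cell markers, 12 were higher in Eμ-TCL1;p53R172H/+ in ibrutinib, with a median log2 change of 2.01, and 10 had an unadjusted p under 0.05 (12% of all genes), but none passed adjustment (lowest limma adjusted p = 0.165), while Cd3e was at 34.5 to 96.0 against 9.0 to 14.8. The part of these cells in the Tigit difference was not tested. Foxp3, which defines regulatory T-cells, was 4.3, 2.8 and 2.5 in Eμ-TCL1;p53R172H/+ replicates 3 to 5 in ibrutinib. It was at most 2.0 in every other library. Il2ra, another of the 3 regulatory T-cell markers, ran the other way. Its ibrutinib values spanned 1.7 to 2.6 with the p53 mutation and 3.1 to 11.7 without it. Ikzf2, the third marker, spanned 21.7 to 45.2 with the mutation and 6.3 to 27.6 without it, with overlap.

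**Figure D3:**
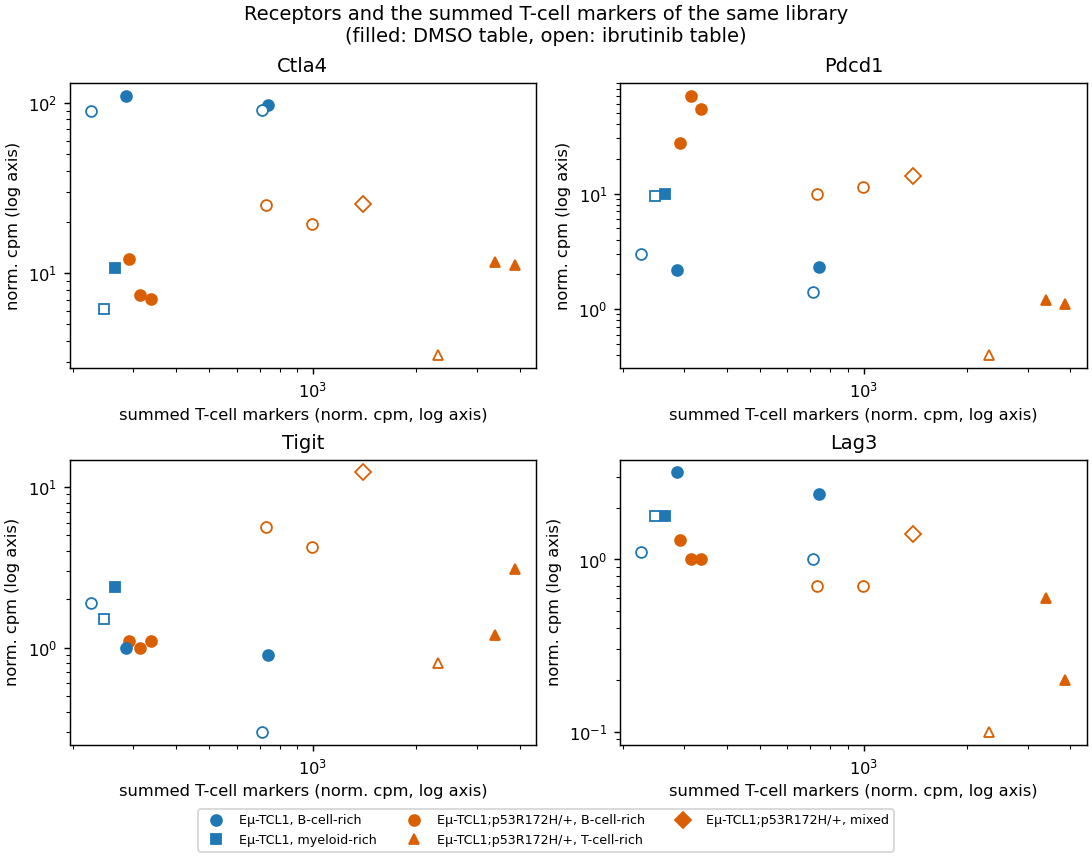
Ctla4, Pdcd1, Tigit and Lag3 (normalized CPM, log axis) against the sum of 12 T-cell markers of the same library (log axis), filled for DMSO and open for ibrutinib, with colors for genotype and shapes for the kind of library. The 3 T-cell-rich libraries at the right, with marker sums of 2314.0 to 3866.7, hold some of the lowest Pdcd1 and Lag3 values, and the highest Tigit value (12.3) is that of the mixed library.

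LAG-3 and TIM-3 messages were scarce. Lag3, a receptor for MHC class II (chr6:124904361-124911705, GRCm38), was 1.8, 3.2 and 2.4 in Eμ-TCL1 and 0.6, 0.2, 1.0, 1.3 and 1.0 in Eμ-TCL1;p53R172H/+ in DMSO. No Eμ-TCL1;p53R172H/+ value reached the lowest Eμ-TCL1 value (log2 change -0.95, standard error 0.28, limma adjusted p = 0.4796, 0.03029 to 0.7595 over all alternatives). At these levels the rounding step of 0.1 is a sizeable part of a value. In ibrutinib Lag3 was 1.8, 1.1 and 1.0 against 0.1, 1.4, 0.7 and 0.7, with overlap (log2 change -0.45, standard error 0.29, limma adjusted p = 0.5535).

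Havcr2 (chr11:46454935-46481255, GRCm38) followed the myeloid-rich libraries, at 14.8 in Eμ-TCL1 replicate 2 in DMSO and 8.0 in replicate 1 in ibrutinib, and at 0.1 to 2.7 in the other 13 libraries. Its log2 change was -1.25 (standard error 0.68, limma adjusted p = 0.645) in DMSO and -0.54 (standard error 0.69, limma adjusted p = 0.739) in ibrutinib. Without the T-cell-rich and myeloid-rich libraries it was 0.03 and 0.55, so its direction rested on those libraries.

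Of the ligands, Cd80, Cd86 and Pdcd1lg2 tracked the B-cell content of the libraries, and Cd274 did so less closely. Among B-cell-rich libraries Cd80 was lower in Eμ-TCL1;p53R172H/+. Cd80 (chr16:38455561-38496335, GRCm38) was 11.1, 42.4 and 44.1 in Eμ-TCL1 and 2.3, 2.4, 14.9, 19.2 and 15 in Eμ-TCL1;p53R172H/+ in DMSO (log2 change -1.68, standard error 0.79, limma adjusted p = 0.6245). Eμ-TCL1;p53R172H/+ replicates 3 to 5 were all below Eμ-TCL1 replicates 3 and 4 although both held many B-cell markers, and the log2 change among these 5 libraries was -1.36 (standard error 0.17, limma adjusted p = 0.0879, 0.05869 to 0.7595 over all alternatives). Among all genes, 16.2% were lower without overlap in these 5 libraries. Cd80 was 0.399% to 0.402% of the summed B-cell markers in these Eμ-TCL1;p53R172H/+ libraries and 0.652% and 0.900% in the Eμ-TCL1 ones.

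In ibrutinib Cd80 was 6.2, 50.4 and 38.0 in Eμ-TCL1 and 1.0, 9.5, 20.8 and 13.8 in Eμ-TCL1;p53R172H/+ replicates 1, 3, 4 and 5. Its log2 change was -1.42 (standard error 0.97, limma adjusted p = 0.567), and -1.58 (standard error 0.35, limma adjusted p = 0.1425, up to 0.9999 over all alternatives) without the T-cell-rich and myeloid-rich libraries. As a percentage of the B-cell markers it was 1.28% and 1.29% in Eμ-TCL1 replicates 3 and 4 against 1.21% and 0.998% in Eμ-TCL1;p53R172H/+ replicates 4 and 5, and the mixed replicate 3 alone lay above them, at 1.45%. B-cell markers were themselves lower there, at 657.2 to 1719.1 against 2937.3 and 3932.6, and their part in the Cd80 difference was not tested beyond these ratios.

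Cd86, the companion ligand of CD28 and CTLA-4 (chr16:36603869-36666081, GRCm38), was 13.0, 85.4 and 69.4 in Eμ-TCL1 and 3.2, 3.7, 52.0, 105.4 and 38.0 in Eμ-TCL1;p53R172H/+ in DMSO. In ibrutinib it was 10, 82.2 and 42.8 against 1.6, 14.7, 35.7 and 29.0. The genotypes overlapped in both tables, with log2 changes of -1.05 (standard error 1.20, limma adjusted p = 0.766) and -1.23 (standard error 1.05, limma adjusted p = 0.620). Relative to the B-cell markers, Cd86 held a narrow span of 0.876% to 2.24% over all 15 libraries, while the marker sum itself ran from 123.0 to 6507.3.

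The PD-1 ligands are neighboring genes on chromosome 19 but did not behave alike. Pdcd1lg2 (chr19:29410919-29471161, GRCm38) was 7.9, 65.7 and 37.2 in Eμ-TCL1 and 2.4, 2.6, 34.6, 36.8 and 37.5 in Eμ-TCL1;p53R172H/+ in DMSO, and 6.6, 55.9 and 36.4 against 0.4, 2.5, 12.9 and 23.7 in ibrutinib. Like Cd86, it was low in every T-cell-rich and myeloid-rich library, and it was also low in the mixed one (log2 changes -0.97, standard error 1.10, limma adjusted p = 0.7635, and -1.98, standard error 1.12, limma adjusted p = 0.5135). Cd274 (chr19:29367455-29388095, GRCm38) spanned less, at 36.5, 75.0 and 50.8 against 29.7, 36.9, 57.3, 96.4 and 52.4 in DMSO and 29.7, 52.5 and 47.1 against 14.1, 32.9, 53.9 and 76.3 in ibrutinib. The T-cell-rich libraries kept a sizeable PD-L1 message, and the genotypes lay on top of each other, with log2 changes of -0.05 (standard error 0.40, limma adjusted p = 0.977) and -0.16 (standard error 0.54, limma adjusted p = 0.912). As a percentage of the B-cell markers, Cd274 was 8.13% and 9.57% in the T-cell-rich libraries in DMSO and 1.04% to 2.02% in the B-cell-rich ones. On the opposite strand, Cd274 overlaps AC119228.1 and Pdcd1lg2 overlaps A930007I19Rik, and strand-specific counting is not stated. Ctla4 overlaps the pseudogene Rpl18-ps1 on the same strand, over 525 bases, which strand-specific counting would not resolve. Some reads of these 3 genes may therefore belong to the genes they overlap.

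**Figure D4:**
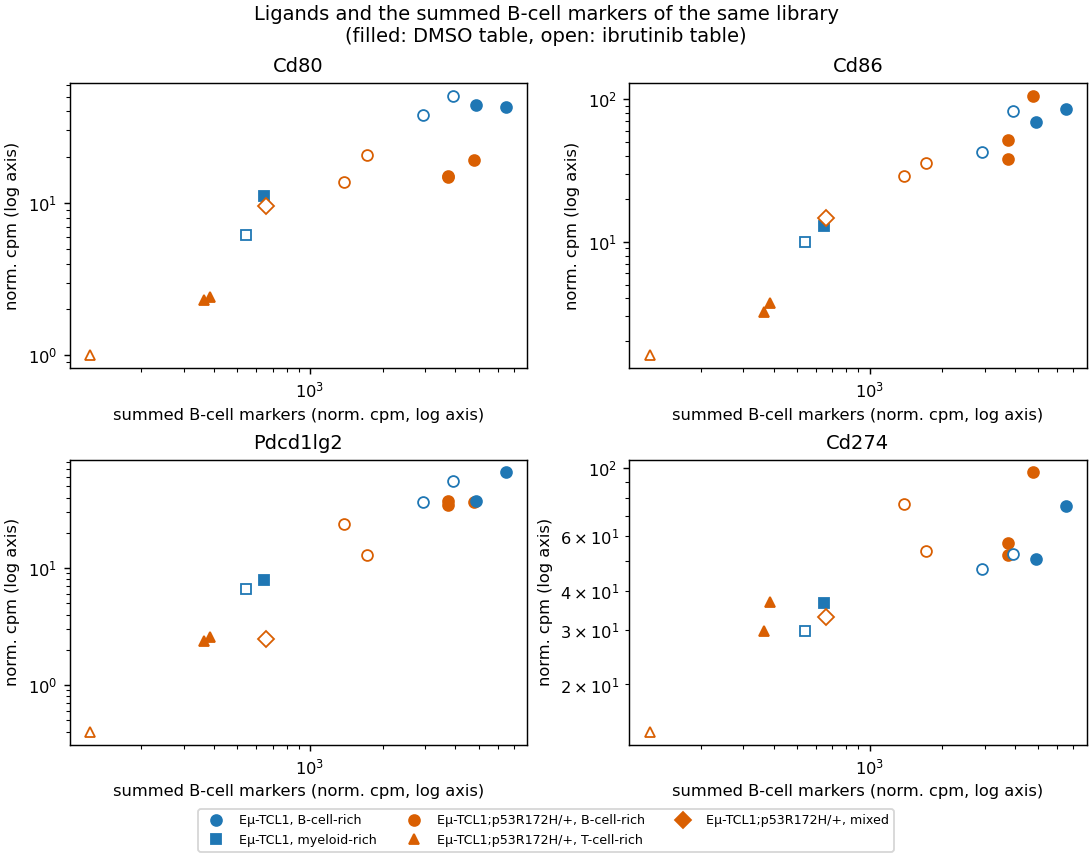
The 4 ligands (normalized CPM, log axis) against the sum of 10 B-cell markers of the same library (log axis), filled for DMSO and open for ibrutinib, with colors for genotype and shapes for the kind of library. Cd86 climbs with the marker sum in both genotypes, Cd80 in Eμ-TCL1;p53R172H/+ replicates 3 to 5 in DMSO (14.9 to 19.2) lies below the Eμ-TCL1 libraries of like marker sum, and Cd274 spans only 14.1 to 96.4.

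Counted over the 10 genes, none passed an adjusted p of 0.05 between genotypes in DMSO, where limma called 2 of 16470 genes (0.0121%). An unadjusted p under 0.05 was reached by 2 of the 10 (Ctla4 and Lag3), against 8.17% of all genes, and the genotypes did not overlap for 1 (Lag3, lower in Eμ-TCL1;p53R172H/+), against 2.93% of all genes in that direction. In ibrutinib limma called none of the 10 and 0 of 16428 genes (0.0%), 1 of the 10 (Btla) had an unadjusted p under 0.05, against 12% of all genes, and the same gene was the only 1 without overlap, against 5.97% of all genes that were lower. The median log2 change of the 10 was -0.96 in DMSO and -0.70 in ibrutinib, beside 0.04 and -0.05 over all genes, and 8 of the 10 were lower in Eμ-TCL1;p53R172H/+ in each table, against 46.7% and 54.4% of all genes. The lean in DMSO rested on the T-cell-rich libraries, without which 5 were lower and 5 higher with a median of 0.0813. Without the myeloid-rich one too, 6 were lower and 4 higher with a median of -0.27. In ibrutinib 7 were lower and 3 higher without the T-cell-rich library, with a median of -0.33. Without the myeloid-rich one too, 6 were lower and 4 higher there, with a median of -0.52. With the T-cell-rich and myeloid-rich libraries left out, none of the 10 passed adjustment either (0.0729% of genes called in DMSO and 0.0% in ibrutinib). Without overlap in that setting were 1 higher and 3 lower genes of the 10 in DMSO (16.5% and 16.2% of all genes) and 2 higher and 5 lower in ibrutinib (15.2% and 18.7%). In either direction that is 4 of the 10 against 32.7% of all genes in DMSO and 7 of the 10 against 34% in ibrutinib. An unadjusted p under 0.05 was reached by 4 against 17.1% and by 6 against 17.7%. In this ibrutinib setting it was also reached by 7 of 10 B-cell markers, all lower, and 8 of 12 T-cell markers, all higher. Cd80, Cd86 and Pdcd1lg2 varied with B-cell markers, so the 10 are not independent counts. The part of the cell markers in these counts was not tested.

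**Figure D5:**
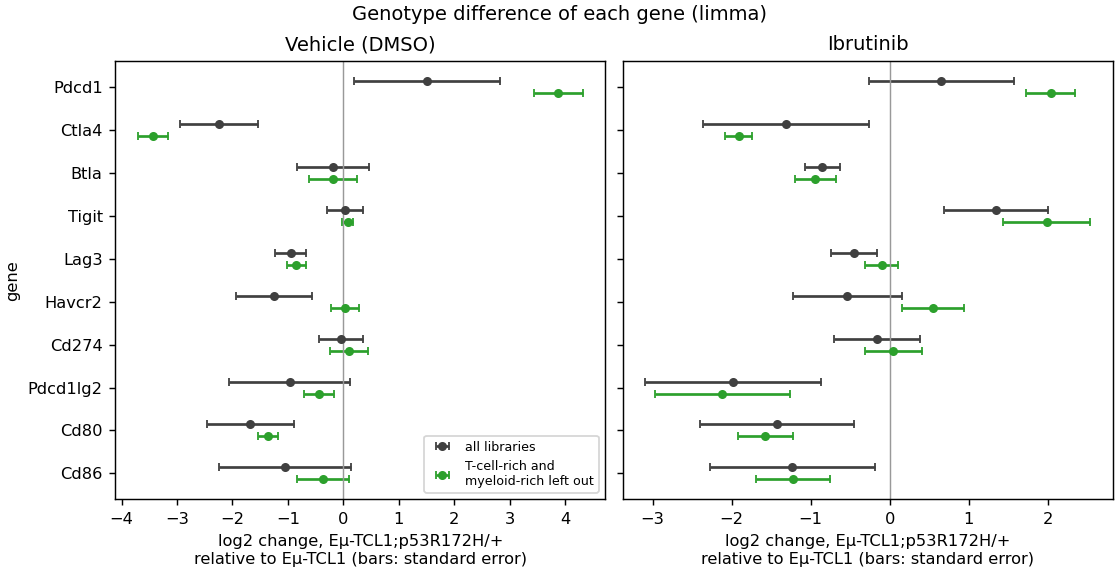
Log2 change of each checkpoint gene in Eμ-TCL1;p53R172H/+ relative to Eμ-TCL1 with its standard error (limma), for all libraries and with the T-cell-rich and myeloid-rich libraries left out, in DMSO (left) and ibrutinib (right). Ctla4 is below 0 and Pdcd1 above 0 in both panels, with much shorter bars once those libraries are left out (standard error 0.27 against 0.70 for Ctla4 in DMSO), whereas Cd274 stays within 0.2 of 0 throughout.

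The genotype difference was also compared between treatments, in an interaction fit over 15869 genes in both tables, in which a factor common to a table cancels. None of the 10 genes and 0 genes in all (0.0%) were called by limma, and none of the 10 had an unadjusted p under 0.05, against 0.523% of all genes. The fit treated libraries of the same number in DMSO and ibrutinib as independent, although 5 of 6 such pairs deviated together (correlations of 0.751 to 0.807, and -0.124 for Eμ-TCL1;p53R172H/+ replicate 3). With genotype and number together as a replicate block, 1 of the 10 (Pdcd1, -1.53, standard error 0.53) had an unadjusted p under 0.05, against 5.05% of all genes, and none passed adjustment. That block ties together Eμ-TCL1;p53R172H/+ replicate 3 of both tables, which did not deviate together. It leaves apart Eμ-TCL1 replicate 2 in DMSO and replicate 1 in ibrutinib, which were alike (r = 0.986). In the fit without the block, the term was 0.93 (standard error 1.33) for Ctla4, -0.85 (standard error 1.78) for Pdcd1 and 1.31 (standard error 0.75) for Tigit, each with an adjusted p of 1.0. Without the T-cell-rich and myeloid-rich libraries, the terms were 1.53 (standard error 0.33), -1.85 (standard error 0.56) and 1.90 (standard error 0.61). There 4 of the 10 (these 3 and Lag3) had an unadjusted p under 0.05, against 8.94% of all genes, and none passed adjustment. In Eμ-TCL1;p53R172H/+ replicates 3 to 5 the values behind these terms were 7.1 to 12.1 in DMSO and 19.5 to 25.5 in ibrutinib for Ctla4, 27.2 to 69.8 and 9.9 to 14.2 for Pdcd1, and 1.0 to 1.1 and 4.2 to 12.3 for Tigit. The same replicates had summed T-cell markers of 291.6 to 337.2 in DMSO and 731.9 to 1396.2 in ibrutinib. Their summed B-cell markers were 3732.0 to 4774.9 in DMSO and 657.2 to 1719.1 in ibrutinib. The part of these marker differences in the interaction terms was not tested. Replicate 3 of this genotype differed between the 2 tables in its leading immunoglobulin variable genes. These were Ighv6-3 with Igkv12-46 in DMSO and Ighv1-52 with Igkv19-93 in ibrutinib. Its DMSO library held Xist of 1491.3 beside Ddx3y of 0.1, and its ibrutinib library 1.0 beside 82.1. These values place the 2 libraries in opposite sexes, so they do not read as 1 mouse.

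Levels were compared between genes only per kilobase of exon. In DMSO Btla came first in both genotypes, with a median of 75.3 CPM per kilobase in Eμ-TCL1 (25.0 to 111) and 57.0 in Eμ-TCL1;p53R172H/+ (24.8 to 132). In Eμ-TCL1 Ctla4 came second at 42.0 (4.59 to 47.1), whereas in Eμ-TCL1;p53R172H/+ it came sixth at 4.76, behind Pdcd1lg2, Cd274, Pdcd1 and Cd86. In ibrutinib Ctla4 led in Eμ-TCL1 at 38.3 and Cd274 in Eμ-TCL1;p53R172H/+ at 11.98 (3.89 to 21.1), the latter barely ahead of Btla at 10.6 (8.01 to 14.3). The ranges of neighbors in each order overlapped except in Eμ-TCL1;p53R172H/+ in DMSO, where Btla lay above Pdcd1lg2 and Tigit above Lag3 in all libraries. Havcr2 came last in DMSO and Lag3 in ibrutinib.

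Genes whose levels most resembled each checkpoint gene were named by Pearson's r of log2 values over the 15 libraries, each table centered on its own mean. The libraries share cell mixtures, so r describes co-variation only. Cd86 was nearest to A530032D15Rik (r = 0.990), Pik3c2b (0.984) and the B-cell surface gene Ms4a1 (0.983), Cd80 to the B-cell adaptors Bank1 (0.983) and Blnk (0.979) and to the light-chain gene Iglv3 (0.977), and Pdcd1lg2 to Lrrc16a (0.985), the B-cell factor Pax5 (0.977) and Rhbdf1 (0.976). Cd274 was nearest to Ebf1 (0.901), another B-cell transcription factor, then Ahnak2 (0.887) and Gm15991 (0.882). The receptors had other neighbors, with Kcnj1 (0.967), Ttn (0.951) and Sh3bgrl2 (0.949) for Ctla4, Slirp (0.931), Pdhx (0.929) and Tor3a (0.917) for Btla, and Pvrl1 (0.931), Maml3 (0.927) and Spire1 (0.927) for Pdcd1.

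Pvrl1, a nectin adhesion gene of the family whose members bind TIGIT and CD96, was picked as the nearest of 15868 genes to Pdcd1. Its likeness to Pdcd1 in these libraries therefore follows from that choice. It was 40.9, 77.4 and 71.6 in Eμ-TCL1;p53R172H/+ replicates 3 to 5 in DMSO, 0.9 and 1.3 in the T-cell-rich replicates, and 5.4, 0.9 and 1.4 in Eμ-TCL1. Without the T-cell-rich and myeloid-rich libraries its log2 change was 4.86 (standard error 0.35), short of the threshold after adjustment. In ibrutinib it was 0.2, 6.9, 30.8 and 15 in Eμ-TCL1;p53R172H/+ and 6.4, 2.3 and 1.2 in Eμ-TCL1. There the mixed replicate 3, with the highest Pdcd1, had the lowest Pvrl1 of Eμ-TCL1;p53R172H/+ replicates 3 to 5.

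Among other genes of these pathways, no gene of the 5 lists passed the threshold in either table. In DMSO an unadjusted p under 0.05 in the direction of lower Eμ-TCL1;p53R172H/+ values was reached by 1 of 10 partners of the checkpoint proteins (Rgmb, a PD-L2 binding protein, log2 change -1.23), 1 of 14 other inhibitory genes (Cd244, -2.14), 1 of 10 co-stimulatory receptors (Cd226, -1.60) and 1 of 9 co-stimulatory ligands (Tnfsf15, -0.76), and none in the other direction, beside 8.17% of all genes in either direction. None of 20 signaling and transcription factor genes reached it, the nearest being Nr4a3 (1.21, limma adjusted p = 0.613). In ibrutinib it was reached by 2 of 11 partners, 3 of 10 co-stimulatory receptors and 3 of 20 signaling and transcription factor genes (12% of all genes reached it in this table), all higher in Eμ-TCL1;p53R172H/+, and by 1 higher and 1 lower gene among 13 other inhibitory genes and among 8 co-stimulatory ligands. The lowest p-values belonged to genes that were higher in Eμ-TCL1;p53R172H/+, namely Cd28, the activating receptor for CD80 and CD86 (2.28), Icos (1.60), Tnfsf4 (1.58), Cd96 (1.66) and the T-cell factor Tcf7 (2.42), with limma adjusted p between 0.1616 and 0.3176. Cd28 was 199.4, 181.2, 101.6 and 130.7 in Eμ-TCL1;p53R172H/+ and 32.9, 16.1 and 48.7 in Eμ-TCL1 in ibrutinib, in the same order of groups as the T-cell markers, whose part in it was not tested.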

How the data were processed

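RNA sequencing of 15 libraries gave the values used. Per the submitters' processing notes and the study's methods, the authors used TopHat2 2.0.12 and SAMtools 0.1.19, HTSeq-count with GENCODE M2 (GRCm38), dropped genes under 0.5 CPM and applied edgeR normalization. The signal values they deposited are CPM on an effective library size set by the authors within each table, not raw counts. Whole reads could not be recovered, so no count test was run.

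Genotypes were compared within each table by limma 3.58.1 (R 4.3.3, lmFit and eBayes with trend) on log2(value + 1), with Benjamini-Hochberg adjustment over all genes and a threshold of 0.05, and fold changes of low genes are understated on this scale. For marker sums, exact permutation tests (two-sided) were used. Scripts were tested on simulated data. For limma these had less spread than the measured values, so they do not show its power here. Positions came from GENCODE M21, promoters from RefSeq. Named were the 10 genes, Cd3e, a further marker not reported here, per list and table the genes past the threshold or otherwise that with the lowest p, and the 3 nearest genes of each member with a mean of at least 5. Pvrl1, Foxp3, Il2ra, Ikzf2, Lyz2, Ptpn6, Xist and Ddx3y values were added after seeing the data. Members and lists were chosen with earlier results of these data known. Alternatives were pseudocounts of 0.1 and 5, a mean of at least 5, quantile normalization, quality weights, a replicate block and left-out libraries.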

Additional observations from a re-analysis of the deposited data

Results flagged for a closer look

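Dixon's gap test was applied to 32 sets of 4 to 10 libraries (each checkpoint gene and each marker sum in Eμ-TCL1;p53R172H/+), and 2 stood out, where chance gives about 1 in 20. Tigit in Eμ-TCL1;p53R172H/+ replicate 2 in DMSO was 3.1, with the next library at 1.2 and the lowest at 1.0. That library also had the highest T-cell marker sum, 3866.7. The summed regulatory T-cell markers of Eμ-TCL1;p53R172H/+ replicate 3 in ibrutinib were 52.1, with the next library at 28.8 and the lowest at 26.7. The same library had the highest Tigit (12.3) and Pdcd1 (14.2) values in ibrutinib.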

How the results depend on the processing

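No checkpoint gene was called in DMSO except with sample quality weights, which called 3 of the 10 (Ctla4 -3.36, Pdcd1 3.43 and Lag3 -0.87) and 803 genes in all, and without Eμ-TCL1 replicate 2, where Ctla4 was called. Leaving out each library in turn gave 0 to 1 called members in DMSO, 0 to 0 in ibrutinib and 0 to 0 for the interaction. Of all genes, 2 were called in DMSO, but 6 with a pseudocount of 5, 12 without T-cell-rich and myeloid-rich libraries, 61 without Eμ-TCL1 replicate 2, and 5 when Eμ-TCL1;p53R172H/+ replicate 4 was left out. Settings not named here called 0 to 3. In ibrutinib 0 were called, but 28 under quality weights, and 24 or 5 when Eμ-TCL1 replicate 1 or Eμ-TCL1;p53R172H/+ replicate 5, respectively, was left out. The directions of Ctla4, Pdcd1, Lag3 and Cd80 held in every alternative in which they were tested, within either table.

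The direction of other genes turned. Cd274 in DMSO was 0.0278 with quality weights, 0.35 without the T-cell-rich libraries, 0.10 without the myeloid-rich one too and 0.0782 in Xist-high libraries. In the T-cell-rich and the Xist-high settings Pdcd1lg2 was 0.40 and 0.39, Cd86 0.46 and 0.0474, Btla 0.44 and 0.54, and Tigit -0.18 and -0.20. Havcr2 in DMSO was 0.0294 without T-cell-rich and myeloid-rich libraries. In ibrutinib Cd274 was 0.29, 0.0467, 0.36 and 0.85 without T-cell-rich, also without myeloid-rich, also without the mixed, and in Xist-high libraries, and Havcr2 was 0.37 with quality weights and 0.55 without T-cell-rich and myeloid-rich libraries, and 0.63 when the mixed one was left out as well. The T-cell marker difference was -0.29 and -0.55 in DMSO and 1.56 and 1.33 in ibrutinib (exact permutation p = 0.1, the smallest possible) without T-cell-rich and without both kinds of library. The cause of these changes was not tested.

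With 1 library left out, log2 changes ran from -0.29 to 0.22 (Cd274), -0.81 to 0.26 (Btla) and -0.16 to 0.30 (Tigit) in DMSO, from -0.50 to 0.29 (Cd274) and -1.17 to 0.23 (Havcr2) in ibrutinib, and from -0.29 to 1.98 for the Ctla4 interaction, and the T-cell marker difference from 0.57 to 1.60 in DMSO and 1.56 to 2.39 in ibrutinib. A replicate block called 0 members in either table and 0 for the interaction, where genes with an unadjusted p under 0.05 went from 83 to 802. Same-numbered libraries of the genotypes did not deviate together (correlations -0.159 to 0.369), so the numbers do not pair them, and under the block Cd274 (0.18) and Btla (0.11) turned in DMSO. Unknown depth and rounding limit Lag3, Tigit and Havcr2 most.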

Other observations

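Ptpn6, the phosphatase that several inhibitory receptors recruit, was 168.5, 254.8, 841.0, 464.9 and 961.3 in Eμ-TCL1;p53R172H/+ and 289.8, 612.1 and 566.1 in Eμ-TCL1 in DMSO. In ibrutinib its values were 49.7, 40.1, 38.8 and 92.7 against 262.7, 79.1 and 69.1. All ibrutinib values but that of the myeloid-rich Eμ-TCL1 replicate 1 lay below all DMSO values. The tables were scaled separately, and this was not tested.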
